A study of Mus musculus with 2 samples.

Results

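The ribosomal protein genes were described across cell classes of the mouse hippocampus. They were taken as the rows of the 2 gene count tables whose symbol begins with Rpl or Rps and a number (with the usual letter endings), or is Rpsa or an Rplp name. This gave 84 genes of 41605 rows: 33 of the small subunit (40S) and 51 of the large subunit (60S), the latter with the 3 stalk genes Rplp0, Rplp1 and Rplp2. Of the 84, 7 were paralogs, second copies that resemble another member. Hippocampi of male mice aged 10 weeks (strain C57BL/6, wild type) had been dissociated, 3 mice to a pool, and each of the 2 pools gave 1 library of single cells captured in droplets and counted from the 3' end of each mRNA (10x Genomics, version 3 of the kit). The series sets enzymatic digestion at 37 °C for 30 min against mechanical dissociation at 4 °C, both followed by a Percoll gradient, but no label ties a library to a method. The libraries are therefore called library 1 and library 2, and stand for no treatment. Ratios between cell classes were taken within a library. Some levels, shares and rank orders of members are also set beside each other across the 2 libraries. For the microglia-like cells a ratio of the libraries is given at the end. Differences between the libraries stand for no treatment. With 1 pool per library there was no replicate and no test, and all intervals are 95% intervals of counting error alone.

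Ribosomal proteins are the protein part of the ribosome, the particle that translates mRNA: the 40S subunit reads the message, the 60S subunit joins amino acids, and the stalk on the 60S side recruits the elongation factors. Their mRNAs are among the most abundant in a cell, are needed in balanced amounts, and in mammals usually begin with a run of pyrimidines (C and T in the gene), the 5′ terminal oligopyrimidine tract, through which growth signals set their translation. In the brain, ribosomal proteins are also made from mRNAs carried into the processes of neurons and glia.

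Runs of C and T around annotated gene starts were looked for in the RefSeq promoter table (build GRCm38.p6), which listed 63 of the 84 genes. The window was 30 bases long, 15 on each side of the annotated start. A run was counted where at least 8 neighbouring bases anywhere in the window were all C or T. It therefore need not lie at the first base of the mRNA, and the counts are not counts of 5′ terminal tracts. Where a gene had several listed starts, the longest run over them was counted. On the gene's own strand 27 of 63 members (42.9%) held such a run, against 3760 of 27025 genes of the table (13.9%). On the opposite strand the shares were 4.76% of members and 15.3% of all genes. The windows shown here belong to members on which the results turn: abundant genes (Rpl13, Rps24, Rpl41), genes that departed from the group (Rpl15, Rpl31, Rps4x) and 3 genes beside their paralogs. They are written 5′ to 3′ on the gene's strand with the longest C/T run in capitals, and the annotated start, the first listed one of each gene, is the 16th base.
Rpl13: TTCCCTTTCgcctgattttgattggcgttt
Rps24: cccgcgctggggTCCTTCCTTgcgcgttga
Rpl41: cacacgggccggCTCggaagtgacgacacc
Rpl15: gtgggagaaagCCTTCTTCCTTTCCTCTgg
Rpl31: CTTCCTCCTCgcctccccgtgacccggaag
Rps4x: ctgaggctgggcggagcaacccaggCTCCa
Rpl22: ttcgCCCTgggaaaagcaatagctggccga
Rpl22l1: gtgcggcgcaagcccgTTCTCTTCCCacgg
Rps27: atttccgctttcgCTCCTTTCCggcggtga
Rps27l: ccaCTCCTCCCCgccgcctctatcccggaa
Rpl39: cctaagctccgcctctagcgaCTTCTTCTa
Rpl39l: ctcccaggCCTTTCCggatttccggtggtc

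The longest run shown was that of Rpl15, 17 bases within the window chr14:18270972-18271001 on the minus strand. Rpl22 held a run of only 4 bases (5 at its other listed start), while its paralog Rpl22l1 (window chr3:28805493-28805522, plus strand) held one of 10. Rpl41 and Rps4x had runs of 3 and 4 bases in these windows. The runs marked for Rpl13, Rpl31 and Rps27l, among others, ended before the annotated start. A run is a description of the letters around an annotated start, and where an annotated start is off by some bases a run can lie outside the window. Members lay on 19 chromosomes, most often on chromosome 7, with 14 genes.

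Cells were sorted into classes by their marker genes, and the class names end in "-like" because they rest on RNA alone. Library 1 had 12306 barcodes, of which 5989 were kept with a median of 1695 UMIs (unique molecule counts), and library 2 had 6448 and 2062 with 6429 UMIs. The members took 1.56% of all UMIs of library 1 and 7.84% of library 2. The marker lists were high where the names say: microglia markers reached 57984 CPM (UMIs of a gene or list per 1000000 UMIs of the class) in the microglia-like cells of library 1 and 55100 CPM in those of library 2. Neuron markers reached 63709 CPM in the neuron-like cells of library 1, and none of their 8 genes was at 0 there. The neuron markers also stood at 2833 CPM in the microglia-like, 3878 CPM in the astrocyte-like and 3016 CPM in the oligodendrocyte-like cells of that library. Outside their own class the microglia markers summed to 187 CPM in the neuron-like, 635 CPM in the astrocyte-like and 272 CPM in the oligodendrocyte-like cells of library 1, and to 362 CPM in the endothelial-like cells of library 2. The choroid plexus markers stood at 1770 CPM in the microglia-like cells of library 2, against 201 CPM in those of library 1. In library 2 they also stood at 6272 CPM in neuron-like, 3032 CPM in oligodendrocyte-like and 3755 CPM in pericyte or smooth muscle-like cells. The microglia markers summed to 840 CPM in the neuron-like and 2218 CPM in the astrocyte-like cells of library 2. The part that free RNA plays in the values below was not tested. The libraries had 19 barcodes in common, 2 of them among kept cells.

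Ribosomal protein genes took very different shares of the RNA in different cell classes. In library 1 they made up 0.567% of the UMIs of 3733 neuron-like cells (interval 0.562 to 0.573). The 261 astrocyte-like cells stood at 0.832% (0.802 to 0.863) and the 76 oligodendrocyte-like cells at 2.94% (2.87 to 3.02). The 674 microglia-like cells reached 6.13% (6.10 to 6.17), the highest of the 4 compared classes of this library, and no 2 of these 4 intervals overlapped. In shallow cells the neuron-like and astrocyte-like classes were not separated: with fewer than 2000 UMIs, 2297 neuron-like cells gave 6375 CPM (6290 to 6461) and 243 astrocyte-like cells 6623 CPM (6330 to 6927).

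In library 2 the summed values stood in the order endothelial-like, microglia-like, pericyte or smooth muscle-like, and the order of the first 2 depended on depth. The 162 endothelial-like cells gave 12.8% (12.7 to 12.8), the 1497 microglia-like cells 8.92% (8.90 to 8.94) and the 57 pericyte or smooth muscle-like cells 4.01% (3.93 to 4.08). Classes of 20 to 49 cells are given as values only. The choroid plexus-like cells, which secrete cerebrospinal fluid, stood at 4.87% (32 cells, library 1) and 6.69% (23 cells, library 2). In library 2 the 45 oligodendrocyte-like, 28 neuron-like and 21 astrocyte-like cells gave 4.28%, 2.53% and 1.98%.

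**Figure D1:**
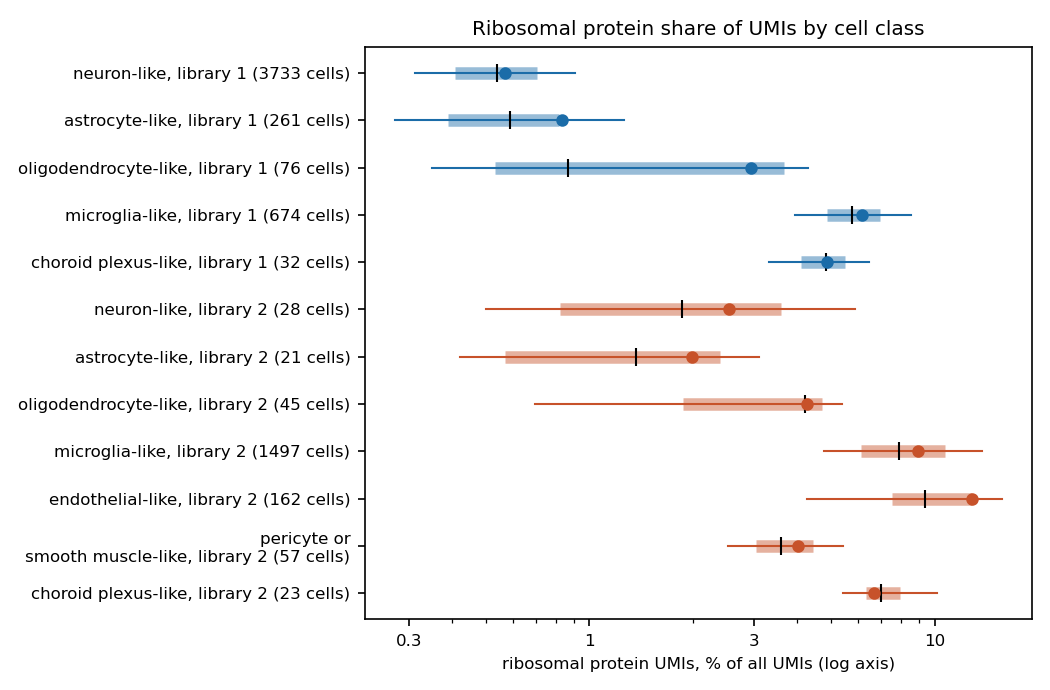
Ribosomal protein UMIs as a percentage of all UMIs (log axis) for each class with at least 20 cells. Dots show the summed share, black ticks the median over cells, thick bars the middle 50% of cells and thin lines the 10th to 90th percentiles (library 1 blue, library 2 orange). The neuron-like and astrocyte-like cells of library 1 lie below 1% at the median, and the microglia-like cells of both libraries between 5% and 8%.

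Single cells varied within each class. The median neuron-like cell of library 1 had 0.539%, with the 10th and 90th percentiles at 0.312% and 0.906%. The median microglia-like cell had 5.76% in library 1 and 7.87% in library 2. The median endothelial-like cell had 9.38%, below the 12.8% of the class, with the 10th and 90th percentiles at 4.27% and 15.6%. The oligodendrocyte-like cells of library 1 were spread widely: the median cell had 0.869% and the 75th percentile was 3.65%. Of these, the 45 cells with fewer than 2000 UMIs summed to 7986 CPM of members and the 20 cells with 2000 to fewer than 5000 UMIs to 37671 CPM. Their Malat1 shares, a nuclear RNA treated further on, were 23.0% and 5.73%. The value of this class, 29446 CPM, therefore rested on its deeper cells: with a limit of at least 500 UMIs and 250 genes it was 14260 CPM over 918 cells, and as a mean over cells 19658 CPM. The astrocyte-like value of library 1 was 16868 CPM in the 18 cells with at least 2000 UMIs, against 8323 CPM over all of them. The endothelial-like cells of library 2 gave 68394 CPM in 51 cells with 2000 to fewer than 5000 UMIs and 132570 CPM in 106 cells with 5000 or more. The microglia-like cells of library 2 gave 78420 CPM (77856 to 78986) and 90087 CPM in the same bands, so they lay above the endothelial-like cells in the first band (67193 to 69611 CPM) and below them in the second. The 98 microglia-like cells of library 2 with fewer than 2000 UMIs gave 103890 CPM (102215 to 105586). The level of this class thus did not rise evenly with depth.

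Set against the neuron-like and astrocyte-like cells, the microglia-like cells were higher in every member read. Against oligodendrocyte-like and pericyte or smooth muscle-like cells they were higher in most, and against endothelial-like cells lower in most. Ratios are log2 of the CPM plus 1, and a feature was read where its mean CPM over both classes was at least 10. In each of the 5 comparisons 81 of the 84 members passed that limit, and the others were Rpl3l, Rpl10l and Rpl39l. Against the neuron-like cells of library 1 the members' median was 3.35, beside -0.28 over all 10942 features. At least 2-fold higher were 80 members and at least 2-fold lower 0, where 27.3% of all features were higher and 36.1% lower by that rule. The summed level was 10.8 times that of the neuron-like cells. Against the astrocyte-like cells the median was 2.85 (all features 0.00), with 80 members higher and 0 lower, where 27.4% and 25.7% of all features were.

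Against the oligodendrocyte-like cells of library 1 the median was 0.96 and that of all features -0.01. There 39 members were at least 2-fold higher and 0 lower, beside 24.2% and 22.1% of all features. This median moved to 0.67 with cells of at least 2000 UMIs and to 2.09 with cells of at least 500 UMIs and 250 genes. Against the astrocyte-like cells it moved from 2.85 to 1.82 with at least 2000 UMIs, where 18 of those cells were left.

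In library 2 the members lay lower in microglia-like than in endothelial-like cells, with a median of -0.58 beside -0.06 over all features. The summed level had this direction over all cells and over those with 5000 or more UMIs, and the opposite one in cells with 2000 to fewer than 5000. None of the 81 was at least 2-fold higher and 4 were at least 2-fold lower (Rpl38, Rps20, Rpl9 and Rpl41), while 18.8% and 19.3% of all features were. The members' shares past 2-fold were thus below those of all features in both directions. Against the pericyte or smooth muscle-like cells the median was 1.05 (all features -0.28). There 45 members were higher and 1, Rps4l, was lower, against 18.8% and 26.9% of all features. With a mitochondrial limit of 20% this median was 0.67, with 89 in place of 57 pericyte or smooth muscle-like cells.

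**Figure D2:**
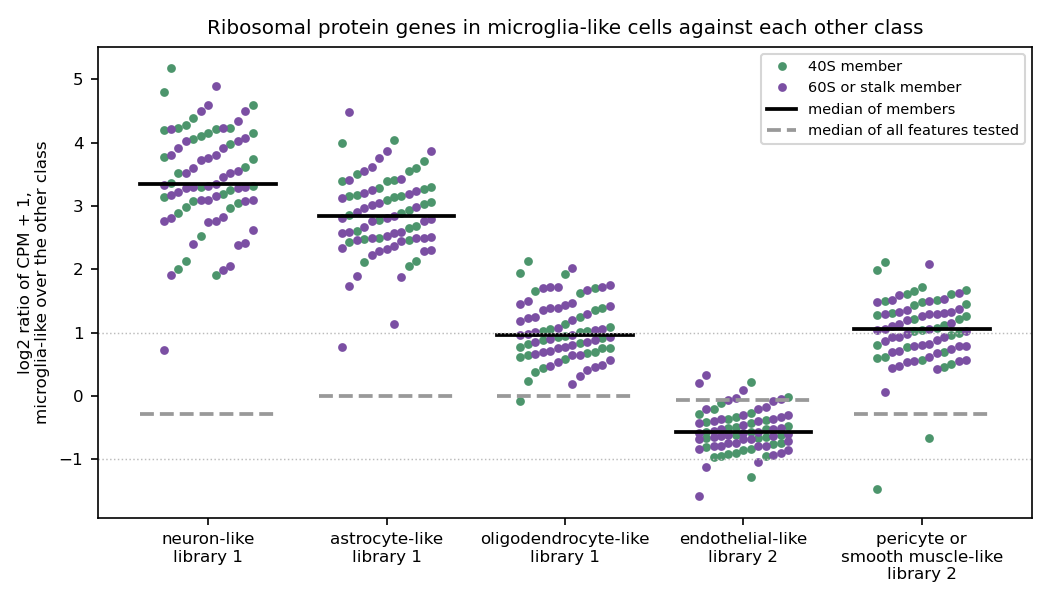
Log2 ratio of CPM plus 1 in microglia-like cells over each other class of the same library, 1 point per member past the filter (81 in each comparison; horizontal spread only separates points). Black lines are the members' medians (3.35, 2.85, 0.96, -0.58 and 1.05), grey dashes the medians of all features, and dotted lines mark 2-fold.

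Members with and without a C/T run had similar medians, with overlapping ranges. Against the neuron-like cells the 27 members with a run had a median of 3.52 and the 33 listed members without one that passed the filter 3.30. Against the oligodendrocyte-like cells the order was the other way, 0.85 with and 1.03 without, and against the endothelial-like cells the medians were -0.63 and -0.51.

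Among the members with the highest mean level over the compared classes were Rps29, Rplp1, Rpl13, Rpl41 and Rps24. Because 3' reads count each molecule once, their CPM can be set beside each other without division by length. Rps29, a small zinc-binding protein of the 40S head, stood at 44.3 CPM (interval 39.6 to 49.3) in the neuron-like, 118 CPM in the astrocyte-like, 327 CPM in the oligodendrocyte-like and 1259 CPM (1203 to 1316) in the microglia-like cells of library 1. In library 2 it was the leading member of all 3 compared classes, at 4845 CPM in microglia-like, 4179 CPM in endothelial-like and 1219 CPM in pericyte or smooth muscle-like cells. In the neuron-like cells of library 1 Rps29 was only 55th of the 84, at 0.780% of the members' UMIs, against 2.05% in the microglia-like cells beside them. In the neuron-like cells of library 2 it was 4th, at 3.13% on 51 UMIs, against 5.43% in the microglia-like cells there.

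Rplp1, which with Rplp2 forms the stalk dimers that draw elongation factors to the ribosome, led the microglia-like cells of library 1 at 2280 CPM (2205 to 2357). Its level was 100 CPM in the neuron-like, 193 CPM in the astrocyte-like and 562 CPM in the oligodendrocyte-like cells. In library 2 Rplp1 stood at 3329 CPM in the microglia-like, 2881 CPM in the endothelial-like and 786 CPM in the pericyte or smooth muscle-like cells. Rplp1 held 3.72% and 3.73% of the members' UMIs in the microglia-like cells of the 2 libraries, against 1.77% to 2.32% in the other 5 compared classes, so it lay above them in both.

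Rpl41, the shortest of the ribosomal proteins, was the leading member of the choroid plexus-like cells of libraries 1 and 2, at 1951 CPM and 4698 CPM. It stood at 698 CPM in the microglia-like cells of library 1, where it was 45th among the members, and at 3391 CPM in the endothelial-like cells of library 2, where it was 2nd. Rpl13, a 60S protein, had 165, 271, 879 and 1644 CPM in the neuron-like, astrocyte-like, oligodendrocyte-like and microglia-like cells of library 1. Rps24, a 40S protein needed for pre-rRNA processing, had 84.6 CPM in the neuron-like and 1523 CPM in the microglia-like cells of library 1. The rank order of the 84 members was most alike between microglia-like and endothelial-like cells of library 2 (Spearman's rho 0.91 across genes). Neuron-like and microglia-like cells of library 1 gave 0.63, and the microglia-like cells of the 2 libraries 0.77. Genes are not independent replicates, and the classes differ in depth.

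The balance of the subunits also differed between classes. Summed 60S UMIs were 1.51 times the 40S UMIs in the neuron-like cells of library 1 (interval 1.48 to 1.54) and 1.59 times in the astrocyte-like cells (1.48 to 1.72), and these intervals overlap. The microglia-like cells of library 1 gave 1.29 (1.28 to 1.31) and the oligodendrocyte-like cells 1.21 (1.15 to 1.27), so both lay below the neuron-like value by more than counting error. In library 2 the ratio was 1.22 in microglia-like, 1.24 in endothelial-like and 1.37 (1.32 to 1.42) in pericyte or smooth muscle-like cells. The pericyte or smooth muscle-like interval lay apart from both others. The stalk genes Rplp0, Rplp1 and Rplp2 together took 6.26% and 6.31% of the members' UMIs in the microglia-like cells of libraries 1 and 2, against 3.26% to 4.27% in the 5 other compared classes.

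**Figure D3:**
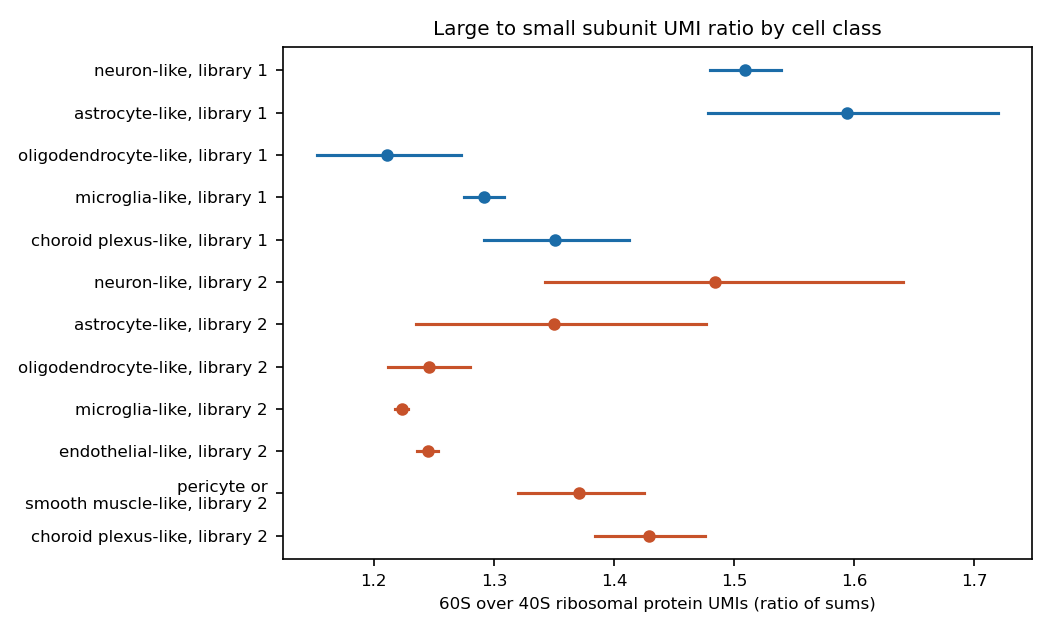
Ratio of summed 60S to summed 40S ribosomal protein UMIs by class (dots), with exact 95% intervals of counting error (lines); library 1 is blue and library 2 orange. The neuron-like and astrocyte-like cells of library 1 lie near 1.5 to 1.6, and the microglia-like cells of both libraries at 1.29 and 1.22.

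Single members left the group in some classes. A member was said to depart in a pair of classes where its log2 ratio lay at least 1 from the members' median and the exact intervals of its share of the members' UMIs did not overlap. Over the 9 pairs of compared classes within a library, 31 members departed in at least 1 pair and 18 in at least 2. The rule was applied to members only, so no share of all features stands beside these counts. Whether they are many or few for genes of such levels was not tested. Most lay between neuron-like cells and the other classes of library 1: 15 against microglia-like, 13 against oligodendrocyte-like and 6 against astrocyte-like cells. Between the microglia-like and endothelial-like cells of library 2 only Rpl38 departed, by -1.01, and with classes taken from clusters of cells it departed in no pair. With those cluster classes 13 members departed in at least 2 pairs, 10 of them among the 18.

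Members that held a larger share in the neuron-like cells of library 1 than in another class of that library were Rpl6, Rpl15, Rps13, Rps27 and Rpl10a. Rpl6, a 60S protein, was the leading member of the neuron-like cells of library 1 at 221 CPM, or 3.89% of the members' UMIs. It stood at 921 CPM in the microglia-like cells of that library, where it was only 27th among the members. Rpl15, a 60S protein of the core, had 208 CPM in neuron-like, 116 CPM in astrocyte-like, 437 CPM in oligodendrocyte-like and 790 CPM in microglia-like cells. Its share was 3.67% in the neuron-like cells and 1.29% to 1.49% in the other 3 classes, a departure of 1.44 to 1.52 on the log2 scale. Rpl15 and Rpl6 were thus higher in neuron-like than in astrocyte-like cells in CPM too, although the members' median log2 ratio of neuron-like over astrocyte-like cells was -0.68 over cells of all depths.

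Rps13, a 40S protein, had 207 CPM and 3.65% of the members' UMIs in the neuron-like cells, and 833 CPM and 1.36% in the microglia-like cells. Rps27, a zinc-finger protein of the 40S, had 110 CPM in the neuron-like and 86.6 CPM in the astrocyte-like cells of library 1, with 1.93% and 1.04% of the members' UMIs. In library 2 its share was 1.48% in the neuron-like cells, which are given as values only. The 3 compared classes there had 1.97% (microglia-like), 2.18% (endothelial-like) and 2.21% (pericyte or smooth muscle-like). The neuron-like value rests on 24 UMIs (374 CPM, interval 239 to 556), too few to set its share apart from these. Rpl10a, the 60S protein that is tagged to purify ribosomes from chosen cell types, had 101 CPM in neuron-like and 189 CPM in oligodendrocyte-like cells, at 1.78% and 0.641% of the members' UMIs. Rpl10a thus differed less than the group between these classes, where the members' median log2 ratio of neuron-like over oligodendrocyte-like cells was -2.52.

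Rpl31, a 60S protein near the exit of the peptide tunnel, departed in 4 pairs, all in library 1. Its CPM was 39.6 in neuron-like, 72.2 in astrocyte-like, 110 in oligodendrocyte-like and 160 in microglia-like cells, and its share was 0.375% and 0.261% in the last 2, below the 0.699% and 0.867% of the others. Rpl36a, a 60S protein encoded on the X chromosome, stood at 0.763% of the members' UMIs in the astrocyte-like cells and at 0.239% in the neuron-like cells, on 22 and 100 UMIs.

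In the other direction, Rps4x, the X-linked 40S protein, had the highest ratio of all members between microglia-like and neuron-like cells of library 1, 5.17. It stood at 37.9 CPM in the neuron-like, 86.6 CPM in the astrocyte-like, 442 CPM in the oligodendrocyte-like and 1403 CPM (1345 to 1464) in the microglia-like cells of library 1. Its share of the members' UMIs was 0.668% in the first and 2.29% in the last. In library 2 the Rps4x share was 1.72% in the neuron-like cells, on 28 UMIs, and 1.49% in the microglia-like cells. Rps10, a 40S protein at the mRNA entry side, is named although it fell just outside the rule for named genes, because it also departed in 4 pairs. It held 0.826% and 0.833% of the members' UMIs in neuron-like and astrocyte-like cells, and 2.06% and 1.89% in oligodendrocyte-like and microglia-like cells.

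**Figure D4:**
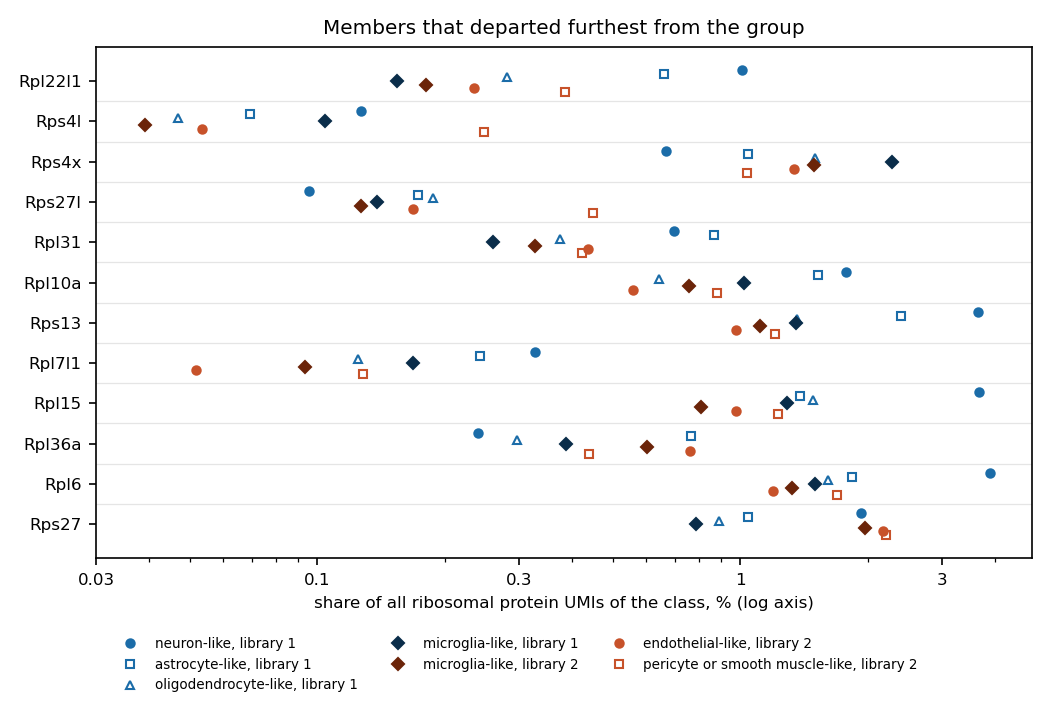
Share of all ribosomal protein UMIs of a class (log axis, in percent) for the 12 members with the largest departures among those that departed in at least 2 pairs, in the 7 compared classes. The neuron-like cells of library 1 (filled blue circles) lie furthest right for Rpl22l1, Rps13, Rpl15 and Rpl6, and the pericyte or smooth muscle-like cells (open orange squares) for Rps4l and Rps27l.

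The paralogs differed from their main copies in how their levels varied over the classes. Rpl22l1, which can stand in for Rpl22 in the 60S subunit, was level with it in the neuron-like cells of library 1, at 57.2 CPM (51.8 to 62.9) beside 57.4 CPM (52.1 to 63.2). In the microglia-like cells of library 1 Rpl22l1 had 94.7 CPM and Rpl22 394 CPM. In library 2 Rpl22l1 had 161, 301 and 154 CPM in microglia-like, endothelial-like and pericyte or smooth muscle-like cells, and Rpl22 had 666, 1067 and 338 CPM. Rpl22l1 held 1.01% of the members' UMIs in the neuron-like and 0.154% in the microglia-like cells of library 1. That departure, 2.64, was the largest of all, and its log2 ratio of 0.72 was the lowest of the 81 members in that comparison.

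Rps27l, the paralog of Rps27 known as a target of p53, was scarce in neuron-like cells of library 1 (5.43 CPM, interval 3.88 to 7.40) and stood at 84.9 CPM in microglia-like cells. In library 2 it had 113 CPM in the microglia-like, 215 CPM in the endothelial-like and 180 CPM in the pericyte or smooth muscle-like cells. There it was 0.449% of the members' UMIs in the last class, against 0.127% and 0.168% in the others. In the choroid plexus-like cells Rps27l reached 323 CPM and 413 CPM in libraries 1 and 2, above each of the 7 compared classes.

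Rpl7l1, a relative of Rpl7 that works in the nucleolus, had 18.6 CPM in the neuron-like and 103 CPM in the microglia-like cells of library 1, where Rpl7 had 40.2 and 769 CPM. In library 2 Rpl7l1 was higher in microglia-like (83.4 CPM) than in endothelial-like cells (65.9 CPM), while Rpl7 went from 759 to 1354 CPM. Rps4l, a copy of Rps4x that the annotation calls a transcribed processed pseudogene, had 35.0 CPM in the microglia-like, 68.2 CPM in the endothelial-like and 99.1 CPM in the pericyte or smooth muscle-like cells of library 2. The last value rests on 27 UMIs. Where copies share sequence, the counting can assign reads of one to the other or drop them, so the split between a paralog and its main copy is uncertain.

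The other 3 paralogs were close to absent from the counts, and no fold is given for them. Rpl10l, known from testis, had 0 UMIs in both libraries, with 11584433 and 15728981 UMIs in kept cells. Rpl39l, also known from testis, had 2 and 27 UMIs, of which 25 lay in the microglia-like cells of library 2 (2.49 CPM). Rpl3l, a protein of striated muscle, had 4 and 2 UMIs. Their main copies Rpl10, Rpl39 and Rpl3 had 1408, 1533 and 796 CPM in the microglia-like cells of library 2. Rpl39 itself was low in the neuron-like cells of library 1 (15.2 CPM beside 482 CPM in the microglia-like cells), a departure of 1.54 in that pair. Retro copies of members had rows of their own. The 16 such rows were small beside their parents: Rpl39-ps had 99 and 1869 UMIs in libraries 1 and 2 where Rpl39 had 1159 and 24452, and Rps27rt 51 and 1365 where Rps27 had 2098 and 31048.

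Other genes of translation were read from fixed lists, and their counts against neuron-like cells stand beside the 27.3% of all features that were at least 2-fold higher and the 36.1% lower. Of the ribosomal proteins that the name rule misses, Fau, made as a fusion with a ubiquitin-like protein, had 55.0 CPM in the neuron-like and 1719 CPM in the microglia-like cells of library 1. Rack1, a scaffold on the 40S head, had 63.4 and 578 CPM there, and Rpl36al had 5.6 and 79.0 CPM. In that comparison 3 of the 4 genes found of this list were at least 2-fold higher in the microglia-like cells, with a median of 3.39. Of the 6 elongation factors 5 were higher and 1 lower, with a median of 2.58. The lower one was Eef1a2, the form of adult neurons and muscle, at 37.1 and 11.1 CPM. Eef1a1, the factor that brings tRNA to the ribosome, had 124 CPM in neuron-like and 2201 CPM in microglia-like cells, Eef2, which moves the ribosome along, 99.8 and 557 CPM, and Eef1b2, which recharges Eef1a1, 44.7 and 386 CPM.

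Other mRNAs that begin with the pyrimidine tract showed a median of 2.47 in the same comparison, with 5 of 6 higher and 0 lower. Tpt1, the best known of them, went from 67.3 CPM in neuron-like to 2204 CPM in microglia-like cells, and stood at 4810 CPM in the endothelial-like cells of library 2. Naca and Btf3, partners in the complex that shields new peptides, had 38.0 and 43.6 CPM in neuron-like and 448 and 295 CPM in microglia-like cells. Of 13 initiation and poly(A)-binding factors 12 were higher and 0 lower, with a median of 2.06. Eif1, which guards start codon choice, had 185 CPM in neuron-like and 870 CPM in microglia-like cells, and Eif4a1, an RNA helicase, 161 and 405 CPM. Eif4g2 stood at 73.7 and 343 CPM.

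Lists further from the cytosolic ribosome had medians nearer to 0, and the counts of the biogenesis list lay near or below those shares of all features. Of the mitochondrial ribosome's 78 genes 74 passed the filter, 37 were higher and 4 (Mrpl41, Mrps26, Mrpl38 and Mrps5) lower in microglia-like than in neuron-like cells, with a median of 1.00. Among its most abundant genes Mrpl41 went the other way, at 183 CPM in neuron-like and 50.3 CPM in microglia-like cells, while Mrpl52 had 38.0 and 142 CPM and Mrps14 38.3 and 84.9 CPM. The ribosome biogenesis list had a median of 0.21, with 5 of 16 genes higher (Ncl, Nop10, Nip7, Pes1 and Nhp2) and 3 lower (Nop56, Gnl3 and Polr1b). Nop56, of the snoRNA-guided methylation complex, stood at 231 CPM in neuron-like and 86.2 CPM in microglia-like cells and its partner Fbl at 154 and 108 CPM. Ncl, nucleolin, had 70.3 and 260 CPM. Of the snoRNA host genes 6 passed the filter, with a median of -0.43, 0 higher and 1, Snhg5, lower. Eef1a2 and the genes named only for these counts were chosen after their values had been seen. Gas5, a host whose own RNA carries a pyrimidine tract, had 371 and 187 CPM, Snhg8 27.7 and 43.7 CPM and Zfas1 61.9 and 43.1 CPM.

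Against endothelial-like cells of library 2 the elongation factors (-0.58), the initiation factors (-0.51) and the other pyrimidine-tract mRNAs (-0.77) had medians near that of the members (-0.58), while the ribosomal proteins outside the name rule had -0.06 and the biogenesis list 0.59. Against pericyte or smooth muscle-like cells, where the members' median was 1.05, these 3 lists lay near 0 (0.23, 0.02 and -0.24) and the mitochondrial ribosome at -0.46. The ribosomal proteins outside the name rule had 0.97 there.

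The level of the nuclear RNA Malat1 also differed between the classes, without following that of the members in a single order. It took 15.1% of the UMIs of neuron-like, 26.8% of astrocyte-like, 9.74% of oligodendrocyte-like and 4.23% of microglia-like cells in library 1. In library 2 it took 3.38%, 3.70% and 8.17% in microglia-like, endothelial-like and pericyte or smooth muscle-like cells. The cells of each class were then divided into 4 groups of equal size by their Malat1 share. Malat1 counts toward the total by which CPM is divided, so a higher Malat1 share by itself lowers the CPM of all other genes. The group values below keep Malat1 in the total, so a fall across the groups is in part fixed by the split. In the neuron-like cells the members went from 6327 CPM in the group lowest in Malat1 to 5044 CPM in the highest. In the microglia-like cells they went from 71237 to 51724 CPM in library 1, and from 113936 to 69662 CPM in library 2. The widest range was in the oligodendrocyte-like cells of library 1, from 38294 to 5718 CPM, with 19 cells in each group. In the other 3 classes the groups did not follow an even order: from the lowest to the highest in Malat1 the astrocyte-like cells gave 12876, 6446, 6735 and 5250 CPM and the endothelial-like cells 150510, 122643, 102876 and 105874 CPM. The pericyte or smooth muscle-like cells gave 39590, 48100, 38466 and 32133 CPM. In the neuron-like group lowest in Malat1 this RNA took 6.80% of UMIs, and the members stood at 6327 CPM. In the microglia-like group of library 1 highest in Malat1 it took 6.22%, and the members stood at 51724 CPM. With Malat1 left out of the total, an alternative added after the data had been seen, the median against neuron-like cells was 3.19 and against astrocyte-like cells 2.46. The part that nuclear RNA has in the class differences was not tested.

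**Figure D5:**
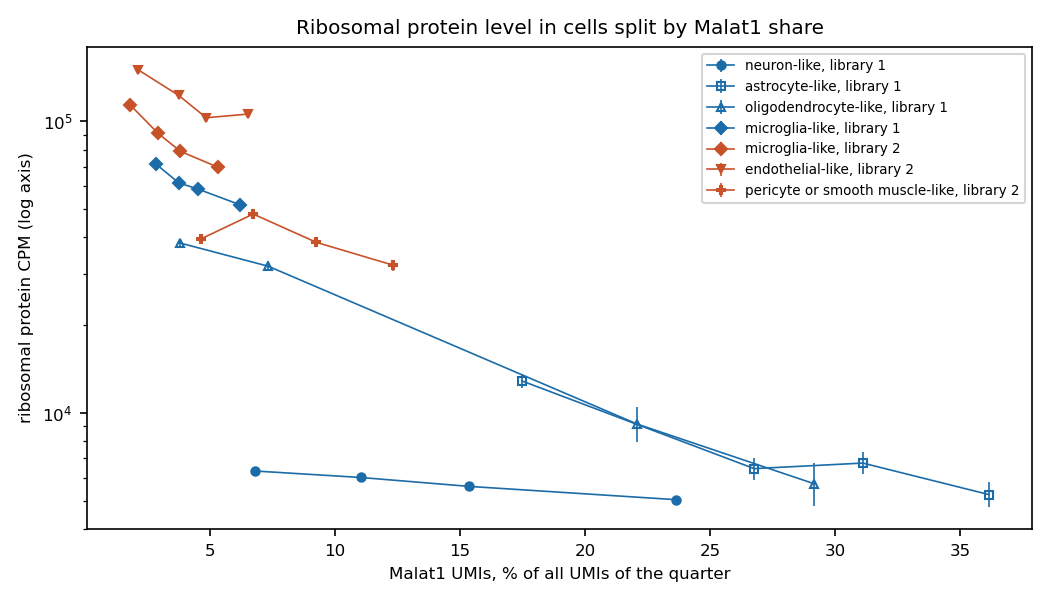
Summed ribosomal protein CPM (log axis) against Malat1 share of UMIs for the cells of each compared class split into 4 groups by Malat1 share; bars are exact 95% counting intervals, many smaller than the symbols. Neuron-like cells of library 1 stay between 5044 and 6327 CPM, and microglia-like cells of the same library between 51724 and 71237 CPM. Malat1 is part of the CPM total, so a higher Malat1 share by itself lowers the CPM of the members.

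Mitochondrially encoded UMIs took 1.36% in the neuron-like and 2.53% in the microglia-like cells of library 1, and 4.95% to 6.55% in the compared classes of library 2. Microglia-like cells of library 2 with up to 5% of such UMIs had 82144 CPM of members and those with 5 to 10% had 98444 CPM. In the 346 microglia-like cells with 10 to 20%, which the filter had removed, the level was 95501 CPM.

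Neuron-like cells could be split further by markers of hippocampal fields in library 1. The 275 dentate granule-like cells had 7068 CPM of members (6818 to 7325), the 188 GABAergic-like cells 6225 CPM (5974 to 6483), the 414 CA1-like cells 5165 CPM (5017 to 5317) and the 390 CA3-like cells 4997 CPM (4865 to 5132). CA1-like and CA3-like cells could not be told apart by these intervals, and the dentate granule-like cells lay above the other 3. Their median depth went the other way, from 1449 UMIs in dentate granule-like to 2626.5 UMIs in CA3-like cells, and over all neuron-like cells the members were lower in deeper cells, from 6375 CPM in cells with fewer than 2000 UMIs to 5107 CPM in cells with 2000 to fewer than 5000. The part of depth in the order of the fields was not tested.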

How the data were processed

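The deposited tables hold raw UMI counts per gene and barcode, with no normalization, made with Cell Ranger 3.0.1 on GRCm38.p5 per the submitters' processing notes. The members, gene lists and alternatives were chosen with earlier results of these data known, and the gate thresholds after class sizes had been seen. Barcodes with at least 1000 UMIs, 500 genes and at most 10% mitochondrial UMIs were kept. Doublets were scored with Scrublet in scanpy 1.11.5. Its threshold marked 12.8% of library 1 and 0.0% of library 2, so the expected 5.16% with the highest scores were removed there. A cell joined a class when its marker share reached 0.1 of that of the 20 most marked cells, 2 times the next class, on at least 3 markers. In libraries 1 and 2, 583 and 63 cells lay near a cut (within 0.8 to 1.2 times), and 4807 and 1908 joined a class. UMIs were summed per class and divided by the class total (CPM). Intervals are exact Poisson or Clopper-Pearson (scipy 1.17.1), and cells are not replicates. Gene positions come from GENCODE M21, which listed all 84 members. The genes named are the 6 highest members, every paralog with its main copy, up to 12 departing members, members with fewer than 4 UMIs in each library, and the 3 highest genes per other list; a few of these are not reported here. The statistics were tested on simulated counts. Classes of fewer than 20 cells were not compared.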

Additional observations from a re-analysis of the deposited data

How the results depend on the processing

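No paired analysis was possible because the result comes from no test and no library has a group. All 5 medians kept their sign under each alternative run. Counts past 2-fold were recomputed with 10 CPM added, with no filter and with classes from clusters: 32 to 40 members were higher than in oligodendrocyte-like cells and 4 to 5 lower than in endothelial-like cells. The cause of each shift below was not tested.

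For cells of at least 2000 UMIs the members' level was 5074 CPM in neuron-like, 16868 in astrocyte-like, 36740 in oligodendrocyte-like and 61782 in microglia-like cells of library 1, and 88971 in microglia-like cells of library 2. With at least 500 UMIs and 250 genes these were 5768, 7575, 14260, 63471 and 89467 CPM. With no doublets removed the neuron-like, oligodendrocyte-like and microglia-like cells of library 1 gave 6003, 28262 and 58206 CPM and the endothelial-like cells 124975 CPM. A mitochondrial limit of 20% gave 89862 CPM in microglia-like, 124606 in endothelial-like and 54434 in pericyte or smooth muscle-like cells of library 2.

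Classes from clusters gave 6058 CPM in neuron-like, 9169 in astrocyte-like and 31105 in oligodendrocyte-like cells of library 1, and 87021, 124256 and 38744 CPM in the microglia-like, endothelial-like and pericyte or smooth muscle-like cells of library 2. They also moved the 60S to 40S ratio of oligodendrocyte-like cells from 1.21 to 1.28. The stricter gate gave 5373 and 23376 CPM in neuron-like and oligodendrocyte-like cells, and 87909, 131043 and 34537 CPM in the classes of library 2. The mean over cells was 5922 CPM in neuron-like, 7284 in astrocyte-like and 19658 in oligodendrocyte-like cells, and 86968, 97709 and 37901 CPM in the classes of library 2.

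Without mitochondrial UMIs the neuron-like, oligodendrocyte-like and microglia-like cells of library 1 gave 5752, 31291 and 62942 CPM and the classes of library 2 gave 93825, 136878 and 42874 CPM. Without Malat1, added after the data had been seen, library 1 gave 6687, 11374, 32625 and 64057 CPM and library 2 gave 92299, 132829 and 43632 CPM. Pseudogene rows added gave 89383 CPM in microglia-like cells of library 2.

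The median against neuron-like cells was 3.21 with no doublets removed, 3.19 without Malat1 and 3.21 with 10 CPM added. Against astrocyte-like cells it was 1.82 for at least 2000 UMIs, 3.10 for at least 500, 2.46 without Malat1 and 2.63 with 10 CPM added. Against oligodendrocyte-like cells it was 0.67, 2.09 and, with the stricter gate, 1.32. Against pericyte or smooth muscle-like cells it was 0.67 with the mitochondrial limit of 20% and 1.23 with the stricter gate. The depth of library 1 limits what can be said of members under about 10 CPM in its smaller classes, where a count of 0 allows up to 3 UMIs: 8.66 CPM in astrocyte-like and 13.8 CPM in oligodendrocyte-like cells.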

Other observations

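Values of the 2 unassigned libraries in their microglia-like cells are given side by side and as ratios, with no method attached and no replicate. The members' median log2 ratio of library 2 over library 1 was 0.40, beside -0.19 over the 8926 features past the filter, and 71 of 81 members were higher in library 2. Of all these features 33.0% were higher in library 2. At least 2-fold higher were 16 of the 81 members and at least 2-fold lower 0, where 2.76% and 6.48% of all features were. The members that stood furthest apart were Rps28 (221 CPM in library 1 and 1303 CPM in library 2), Rpl27 (103 and 446 CPM), Rps29 (1259 and 4845 CPM), Rpl38 (259 and 979 CPM) and Rps27 (483 and 1755 CPM). At the other end were Rps4l (64.0 and 35.0 CPM), Rpl7l1 (103 and 83.4 CPM) and Rpl15 (790 and 721 CPM). Rps9 (1585 and 1497 CPM) and Rps4x (1403 and 1329 CPM) were nearly level. These genes were chosen after their values had been seen. The median depth of the microglia-like cells was 2203.5 UMIs in library 1 and 6489 UMIs in library 2, and the choroid plexus markers in them stood at 201 and 1770 CPM.

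Classes of fewer than 20 cells are given as values only. The highest share of members was in T or NK-like cells, 22.9% in 5 cells of library 1 and 30.6% in 17 cells of library 2, a class singled out after its value was seen. Border-associated macrophage-like cells gave 12.6% in 3 cells of library 1 and 11.3% in 18 cells of library 2. The microglia-like cells of these libraries had 6.13% and 8.92%. Ependymal-like cells gave 0.517% in 2 cells of library 1 and 11.3% in 5 cells of library 2.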
